A study of Mus musculus with 18 samples.

Results

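The genes described here encode 8 receptors that signal through Gi, the G protein class that restrains lipolysis in fat cells. They were chosen by symbol from the 45151 gene symbols that have a row in all 18 expression files. Sucnr1, Ffar2, Npy1r, Cnr1, Lpar1 and S1pr1 are listed under these names, the lactate receptor Hcar1 as Gpr81, and the niacin receptor Hcar2 as Niacr1. All 8 were found, and 5 of them had at least 10 reads in each of the 18 samples. The study profiled RNA to look for receptors of fat cells that couple to Gs, and the 8 genes act on the opposite side of that pathway. In all, 3 fat depots of wild type C57BL/6J males kept on regular chow were sampled at 16 weeks of age, with 6 samples each. For the inguinal (iWAT) and epididymal (eWAT) depots, RNA came from mature adipocytes that floated after collagenase digestion and filtering. For brown fat (BAT) it came from whole frozen tissue, so that depot and preparation cannot be told apart in any comparison with BAT.

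Gi proteins inhibit adenylyl cyclase, the enzyme that makes cyclic AMP. In fat cells cyclic AMP activates protein kinase A, which drives the breakdown of stored triglyceride into fatty acids and glycerol, and a ligand of a Gi-coupled receptor can thus restrain this release. Several of these ligands are themselves products of metabolism (succinate, short-chain fatty acids, lactate, beta-hydroxybutyrate), and others are a neuropeptide or lipid mediators.

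The promoters of 3 members are shown because these genes were higher in iWAT than in BAT and because a RefSeq start of each lies at, or within 17 bases of, the 5′ end of the row that was counted. The sequences come from RefSeq (GRCm38.p6). Each was found exactly once on its own chromosome of mm9, the genome used by the files, in the orientation of the gene. Other chromosomes were not searched. They end at the last base before the row. Capitals mark matches, on either strand, to AGGTCA (the core motif of nuclear receptors), TTGCNNAA (a C/EBP-type palindrome) and TATAAA (a core promoter element), and no matches overlapped. The Sucnr1 sequence lies on the plus strand at chr3:59885541-59885790 of mm9, that of Ffar2 on the minus strand at chr7:31608795-31609044, and that of Gpr81 on the minus strand at chr5:124330030-124330262.
Sucnr1: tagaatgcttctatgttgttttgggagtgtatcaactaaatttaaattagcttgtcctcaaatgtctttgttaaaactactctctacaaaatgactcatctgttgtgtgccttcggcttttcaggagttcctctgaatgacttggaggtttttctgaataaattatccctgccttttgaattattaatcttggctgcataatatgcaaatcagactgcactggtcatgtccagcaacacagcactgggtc
Ffar2: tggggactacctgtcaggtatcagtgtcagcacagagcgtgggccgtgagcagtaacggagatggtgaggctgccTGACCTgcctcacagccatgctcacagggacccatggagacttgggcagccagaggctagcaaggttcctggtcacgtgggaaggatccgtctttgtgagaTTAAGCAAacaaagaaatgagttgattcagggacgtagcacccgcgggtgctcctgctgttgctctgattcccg
Gpr81: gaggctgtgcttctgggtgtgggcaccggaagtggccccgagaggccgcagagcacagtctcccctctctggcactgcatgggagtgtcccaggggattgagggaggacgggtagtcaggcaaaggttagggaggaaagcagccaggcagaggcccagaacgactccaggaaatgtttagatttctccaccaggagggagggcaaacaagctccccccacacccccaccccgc
The Ffar2 sequence held 1 match to AGGTCA, which ends 170 bases before the row, and 1 match to TTGCNNAA, which ends 67 bases before it. Among all 32851 promoter windows of 250 bases, 14.02% held AGGTCA, 9.56% TTGCNNAA and 12.4% TATAAA. The Sucnr1 and Ffar2 sequences have this length, and that of Gpr81 is shorter, with 233 bases. None of these letters occurred in the Sucnr1 and Gpr81 sequences. The 3 sequences also differed in base composition, with a GC content of 38% for Sucnr1, 56.8% for Ffar2 and 62.7% for Gpr81, beside a median of 52.4% over all windows. A match is only a description of the letters. Ffar2 also had RefSeq starts 2127, 2583 and 2636 bases inside its row. Their windows, not shown, each held a match to AGGTCA, TTGCNNAA or both. Cnr1, Lpar1 and Npy1r also had RefSeq windows, and S1pr1 and Niacr1 had no entry in the table.

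The libraries had 22929576 to 34512470 reads behind their RPKM values, which are reads scaled to row length and to these totals. Files of iWAT and BAT list genes with their exons merged, whereas files of eWAT list transcripts, and the transcript with most reads was used. The kind of row follows the depot, so its effect cannot be told apart from that of eWAT. Only Sucnr1, Gpr81 and Niacr1 had an identical row in all files. The summed RPKM of 6 adipocyte markers ran from 11044 to 16821 in iWAT samples, from 9313 to 17091 in eWAT samples and from 5808 to 7188 in BAT samples, and that of 6 brown adipocyte markers was 2720 to 3408 in BAT and at most 122 elsewhere. Other cell types were not absent. The sum of 7 macrophage markers reached 2049 in the eWAT sample of mouse 15 (145 to 490.1 in the other eWAT samples, 28.2 to 147 in iWAT, 21.4 to 49.5 in BAT, with no marker at 0 in a whole depot), that of 8 endothelial markers reached 333 in the iWAT sample of mouse 14 (59.6 to 149 in the others), and that of 5 skeletal muscle markers reached 1340 in the BAT sample of mouse 12. The sum of 5 epididymis markers was 77.9 and 69.0 in the eWAT samples of mice 14 and 15. It was at most 3.56 in the other eWAT samples, 0 in iWAT and at most 0.00864 in BAT. The mouse number is the number in the sample title.

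The receptors for metabolites held most of the RPKM of the group in both kinds of white adipocytes. The summed RPKM of the 8 members averaged 194 ± 5.68 for iWAT, 152 ± 31.7 for eWAT and only 38.2 ± 8.23 for BAT (SD, n = 6 each). Sucnr1, Ffar2, Gpr81 and Niacr1 together made up 90.1% of the iWAT sum, 79.8% of the eWAT sum and 52.8% of the BAT sum. In the last, S1pr1 alone made up 44.9% and Gpr81 36.4%. These BAT shares varied widely by sample, from 32.9% to 78.3% for S1pr1 and from 14.4% to 44.5% for Gpr81. The 4 metabolite receptors together ran from 19.6% to 64.7%. S1pr1 exceeded Gpr81 in only 2 of the 6 BAT samples. In bulk RNA, fewer cells of a type and less RNA per cell cannot be told apart, and this holds for every value that follows.

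**Figure D1:**
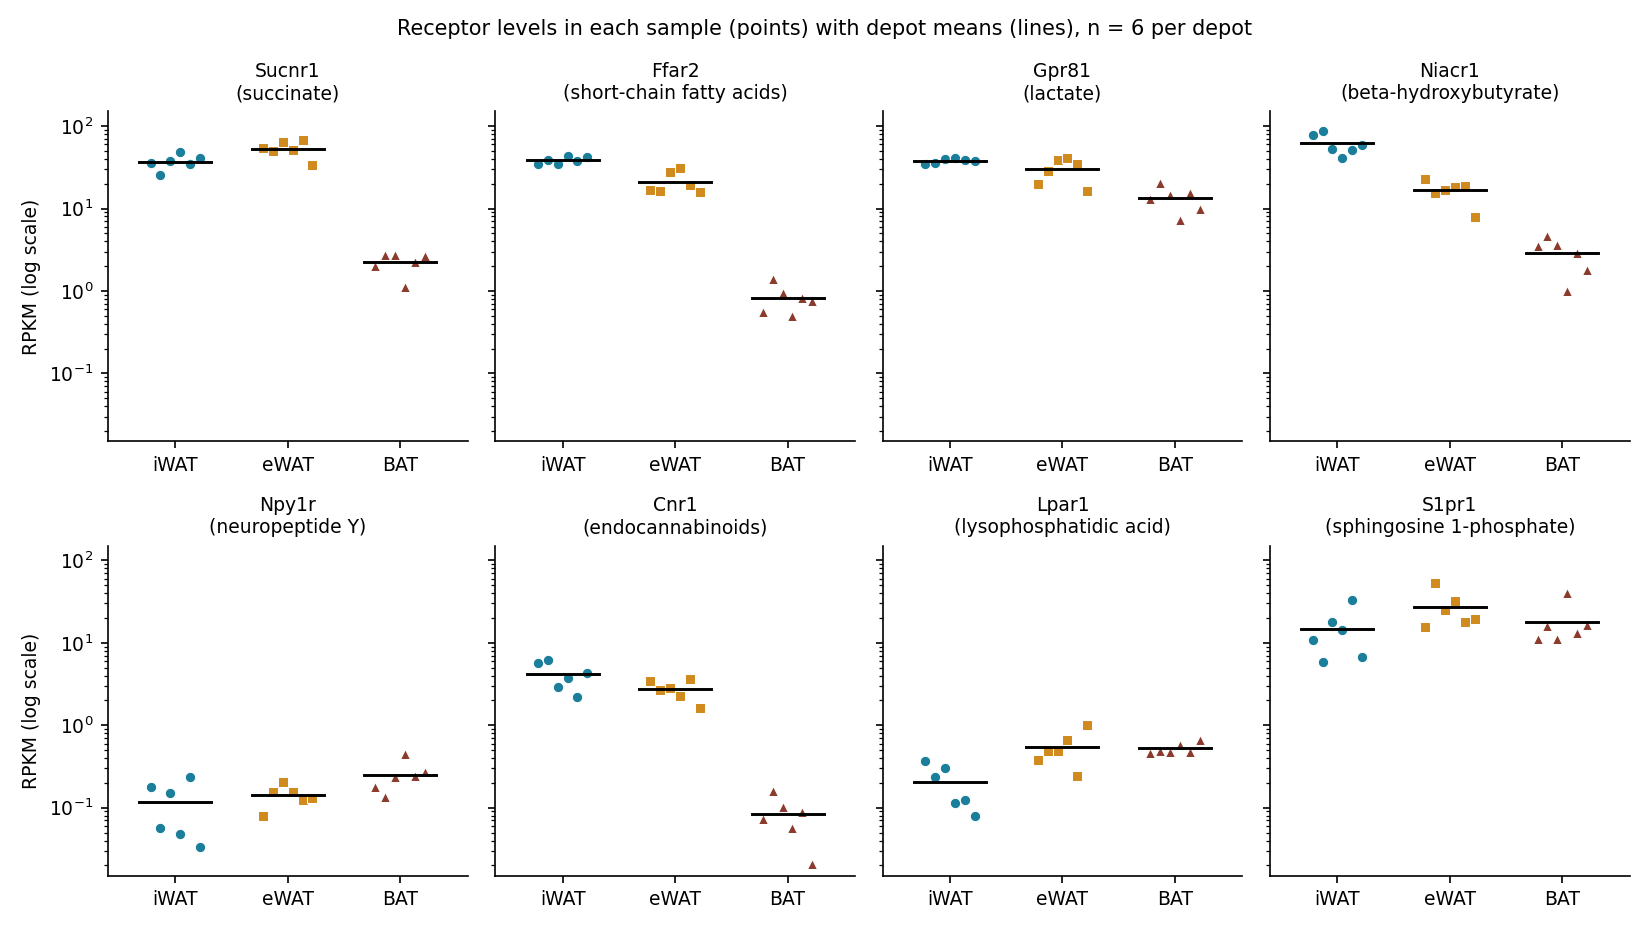
RPKM of the 8 receptor genes (log axis) in each of the 6 samples of iWAT, eWAT and BAT, with a black line at the depot mean. The BAT samples of Sucnr1, Ffar2, Niacr1 and Cnr1 all lie below every white adipocyte sample, whereas those of S1pr1 lie among them.

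Between iWAT and BAT, where the files list the very same rows, 7 of the 8 members differed at an adjusted p under 0.05 (edgeR, 12 samples), and log2FC below is the log2 fold change of the depot named first, with its standard error (SE). Sucnr1, Ffar2, Gpr81, Niacr1 and Cnr1 were higher in iWAT, and Npy1r and Lpar1 were lower. This has to be read against 67.6% of all 19733 rows that were called in either direction, 34% higher and 33.6% lower, so that being called is common among all genes. The RPKM ranges of the 2 depots did not overlap for the 5 higher members and for Lpar1, while this held for 47.7% of all rows (31.6% higher and 16% lower). Between eWAT and BAT, 6 of the 8 were called, 5 higher in eWAT and 1 lower, beside 70.3% of the 18383 symbols tested (35.6% higher and 34.7% lower). The ranges of 4 members, all higher in eWAT, did not overlap, as was so for 61.8% of the symbols, 50.3% being higher in eWAT and 11.5% lower. Between iWAT and eWAT, 4 of the 8 were called, 3 higher in iWAT and 1 lower, where 25.6% of the symbols were (13.4% higher and 12.3% lower). Here the ranges of Ffar2 and Niacr1 did not overlap, beside 32.3% of the symbols, of which most were lower in iWAT (30.3% of all symbols). Macrophage markers differed between the depots as well. All 7 were higher in eWAT than in BAT, with a median log2 fold change of 4.24, and 4 of them were higher in iWAT than in BAT while 3 did not pass (median 1.24). Between iWAT and eWAT, 6 of the 7 were lower in iWAT and 1 did not pass (median -2.77), and their part in the receptor differences was not tested. The comparisons with BAT share the BAT samples and are not independent of each other. Tests with eWAT used read counts with no correction for row length.

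**Figure D2:**
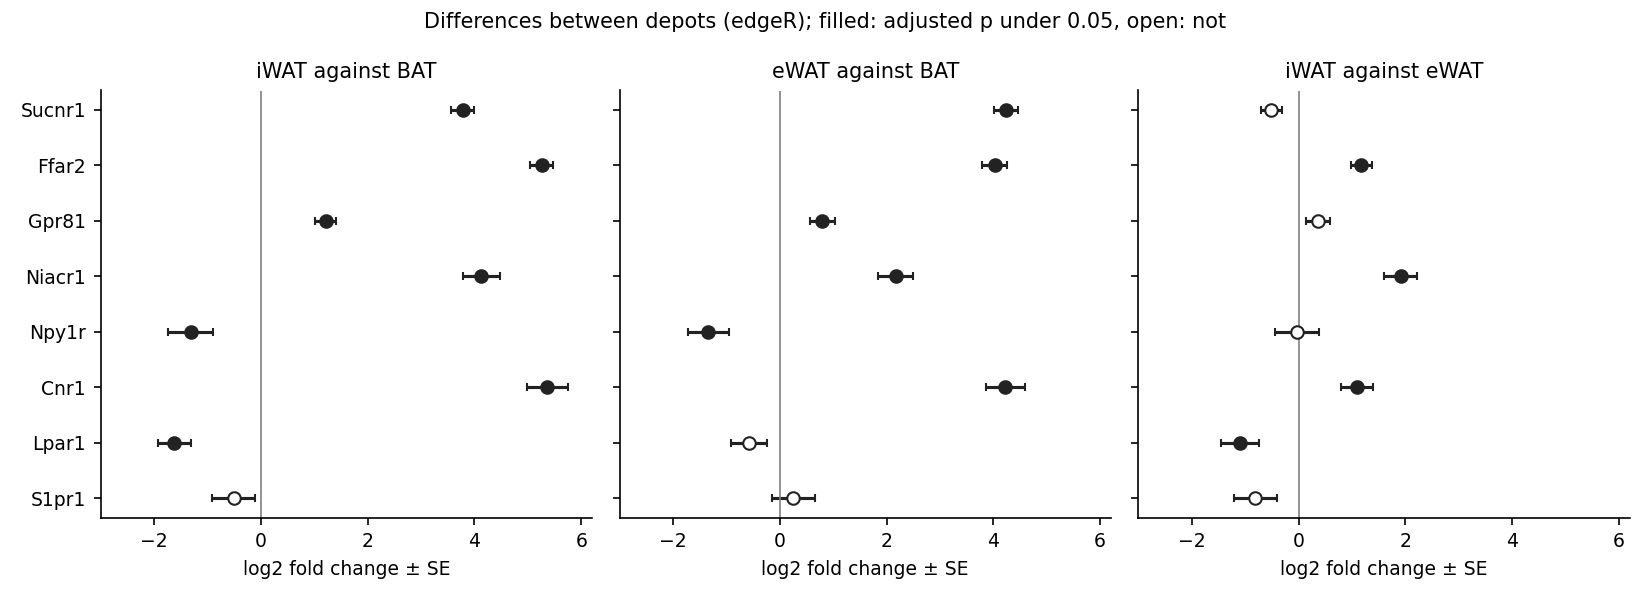
Log2 fold change with its standard error for each receptor gene in the 3 comparisons of depots (edgeR on read counts, 6 samples per depot). Filled points have an adjusted p under 0.05. Ffar2 and Cnr1 have the largest differences between iWAT and BAT, 5.25 and 5.36, and S1pr1 passed the threshold in none of the 3.

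Sucnr1, the receptor for the citric acid cycle intermediate succinate, was the member with the highest mean level in eWAT. Its row lies on the plus strand of mm9 chromosome 3, from 59885791 to 59891488, and spans 2 exons of together 1571 bp. The RPKM was lowest at 25.3, had a median of 36.5 and reached 48.9 in iWAT. In eWAT these values were 33.6, 52.5 and 67.2, and in BAT 1.10, 2.45 and 2.69. Every white adipocyte sample thus exceeded every BAT sample, and the white depots overlapped. The log2 fold change of iWAT over BAT was 3.78 (standard error 0.22, adjusted p = 3.51e-09, edgeR), or 13.7-fold, and that of eWAT over BAT was 4.24 (standard error 0.23, adjusted p = 1.06e-11, edgeR), or 18.9-fold. The lower mean in iWAT than in eWAT, 37.0 ± 7.74 against 53.4 ± 11.97 (SD, n = 6), did not pass the threshold (log2FC -0.52 ± 0.20 SE, adjusted p = 0.0622, edgeR). It passed without the eWAT sample of mouse 15, which had the lowest eWAT value (log2FC -0.61, adjusted p = 0.0232, edgeR). Over all alternatives its adjusted p ran from 0.0203 (limma on log2(RPKM + 1)) to 0.164 (edgeR, all rows of a symbol summed), and with summed rows the direction turned (log2FC 0.32). With the mouse number as a block it was 0.142 (edgeR).

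Ffar2 binds acetate and other short-chain fatty acids. Its merged row lies on the minus strand of chromosome 7 (31603376 to 31608794). The lowest, median and highest RPKM were 34.5, 37.8 and 43.0 among iWAT samples, 15.8, 18.2 and 30.8 among eWAT samples, and 0.498, 0.798 and 1.41 among BAT samples. The 3 depots did not overlap, and iWAT was highest. Ffar2 was 38.2-fold higher in iWAT than in BAT (log2FC 5.25 ± 0.22 SE, adjusted p = 1.57e-10, edgeR) and 16.3-fold higher in eWAT than in BAT (log2FC 4.03 ± 0.23 SE, adjusted p = 2.95e-11, edgeR). Against eWAT it was 2.26-fold higher in iWAT on read counts (log2FC 1.18 ± 0.20 SE, adjusted p = 0.000410, edgeR). The merged row has 2826 bp and the eWAT transcript 2292 bp. With row length as an offset the difference was 0.87 and still passed (adjusted p = 0.00120, edgeR). By RPKM, which takes length into account, 1.95% of all symbols were higher in every iWAT sample than in every eWAT sample, and 30.3% were lower. In the eWAT files, 7 Ffar2 transcripts held from 62.9% to all of the reads of the most-read transcript, so a read was counted on several of them. When all rows of a symbol were summed, the difference between iWAT and eWAT was 0.31 on the log2 scale and did not pass the threshold (adjusted p = 0.180, edgeR).

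Gpr81 and Niacr1 are neighbouring genes with a single exon each on the minus strand of chromosome 5, Niacr1 from 124313579 to 124315525 and Gpr81 from 124326745 to 124330029. Gpr81 responds to lactate and takes part in the antilipolytic action of insulin, and Niacr1 responds to the ketone body beta-hydroxybutyrate and to the drug niacin. The genes are related in sequence. The longest stretch shared by their rows was 18 bases, and 11219 bases separate them. Both had an identical row in all files, so that row length does not differ between depots for this pair.

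Gpr81 was the most even member in iWAT, with a lowest RPKM of 34.7, a median of 38.2 and a highest of 40.7. In eWAT these were 16.1, 31.6 and 40.9, and in BAT 7.34, 13.8 and 20.5. All iWAT samples lay above all BAT samples, whereas eWAT overlapped with both. Gpr81 was 2.32-fold higher in iWAT than in BAT (log2FC 1.21 ± 0.20 SE, adjusted p = 9.47e-05, edgeR) and 1.74-fold higher in eWAT than in BAT (log2FC 0.80 ± 0.23 SE, adjusted p = 0.00446, edgeR). The 6 adipocyte markers were all higher in iWAT than in BAT, with a median log2 fold change of 1.45, which exceeds that of Gpr81 and lies below those of Sucnr1, Ffar2, Niacr1 and Cnr1, and their part in these differences was not tested. With row length as an offset, the median log2 fold change of all symbols between eWAT and BAT was 0.48. Between iWAT and eWAT the difference of Gpr81 did not pass the threshold (log2FC 0.36 ± 0.23 SE, adjusted p = 0.258, edgeR).

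Niacr1 differed more than its neighbour. Its lowest, median and highest RPKM were 40.9, 55.7 and 87.9 in the iWAT samples, 7.83, 17.6 and 23.0 in the eWAT samples and 1.01, 3.20 and 4.62 in the BAT samples. No depot overlapped with another, and Niacr1 was the member with the highest mean in iWAT. It was 17.5-fold higher in iWAT than in BAT (log2FC 4.13 ± 0.35 SE, adjusted p = 1.21e-07, edgeR), 4.50-fold higher in eWAT than in BAT (log2FC 2.17 ± 0.32 SE, adjusted p = 9.47e-06, edgeR) and 3.75-fold higher in iWAT than in eWAT (log2FC 1.91 ± 0.31 SE, adjusted p = 0.000269, edgeR). The ratio of Niacr1 to Gpr81 within a sample ran from 1.005 to 2.48 in the iWAT samples, from 0.434 to 1.15 in the eWAT samples and from 0.138 to 0.269 in the BAT samples. The niacin receptor was thus the more abundant of the pair in iWAT and the less abundant in BAT, and in eWAT the ratio was 0.599 ± 0.272 (SD, n = 6).

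**Figure D3:**
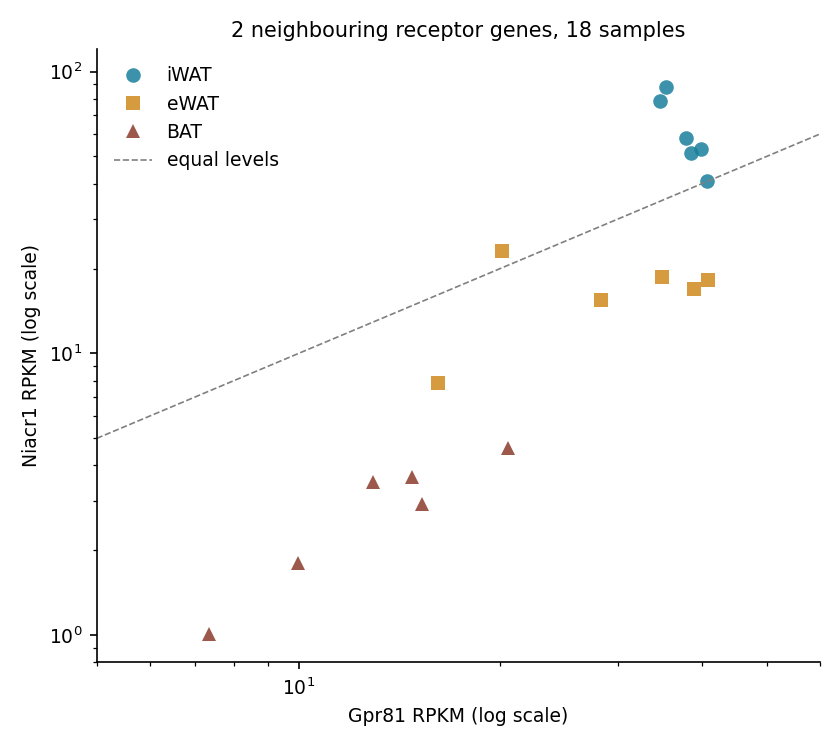
RPKM of Niacr1 against RPKM of Gpr81 (both log axes) in the 18 samples, with a dashed line of equal levels. The iWAT samples lie on or above the line, with ratios of 1.005 to 2.48, and the BAT samples lie below it, with ratios of 0.138 to 0.269.

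Cnr1, the cannabinoid receptor best known from the brain, was measured at a modest level in white adipocytes and at a very low level in BAT. Its merged row lies on the plus strand of chromosome 4 (34011025 to 34035806, 8030 bp of exons). The lowest, median and highest RPKM were 2.17, 4.03 and 6.11 in the iWAT samples, 1.60, 2.75 and 3.60 in the eWAT samples and 0.0210, 0.0802 and 0.160 in the BAT samples. The BAT values rest on 5 to 44 reads per sample, those of iWAT on 554 to 1257. Both white depots lay above all BAT samples and overlapped with each other. Cnr1 was 41.1-fold higher in iWAT than in BAT (log2FC 5.36 ± 0.38 SE, adjusted p = 2.54e-08, edgeR) and 18.6-fold higher in eWAT than in BAT (log2FC 4.22 ± 0.37 SE, adjusted p = 7.90e-09, edgeR). It was 2.13-fold higher in iWAT than in eWAT on read counts (log2FC 1.09 ± 0.30 SE, adjusted p = 0.0122, edgeR). The eWAT transcript is 5807 bp long, shorter than the merged row, and with row length as an offset this difference was 0.63 and no longer passed (adjusted p = 0.0886, edgeR).

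Npy1r, a receptor for neuropeptide Y released by sympathetic nerves, was the member with the fewest reads in iWAT and eWAT. It lies on the plus strand of chromosome 8 (69221091 to 69230697). It had 3 to 26 reads per iWAT sample, 8 to 18 per eWAT sample and 16 to 47 per BAT sample. For iWAT, eWAT and BAT the mean RPKM was 0.117 ± 0.0831, 0.142 ± 0.0423 and 0.251 ± 0.107 (SD, n = 6 each), and the ranges of the 3 depots overlapped. On read counts Npy1r was lower than in BAT both in iWAT (log2FC -1.31 ± 0.42 SE, adjusted p = 0.0134, edgeR) and in eWAT (log2FC -1.34 ± 0.39 SE, adjusted p = 0.00534, edgeR). With a block for the mouse number, the difference between iWAT and BAT was -1.53 and had an adjusted p of 0.0522 (edgeR). Precision is limited at this depth. The genes of its ligands, Npy and Pyy, had too few reads for the test (under 10 in more than 6 of the 12 samples).

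Lpar1 and S1pr1 are receptors for lysophospholipids. Lpar1 binds lysophosphatidic acid and is known from fibroblasts and preadipocytes, and S1pr1 binds sphingosine 1-phosphate and is known for its part in blood vessels and in the exit of lymphocytes from lymph nodes. Lpar1 spans 58448124 to 58566770 on the minus strand of chromosome 4. Its lowest, median and highest RPKM were 0.0797, 0.178 and 0.370 in the iWAT samples, 0.244, 0.484 and 1.02 in the eWAT samples and 0.465, 0.484 and 0.657 in the BAT samples. All iWAT samples were below all BAT samples, while eWAT overlapped with both. Lpar1 was 3.08-fold lower in iWAT than in BAT (log2FC -1.62 ± 0.31 SE, adjusted p = 0.000333, edgeR). Against eWAT it was 2.15-fold lower in iWAT (log2FC -1.10 ± 0.35 SE, adjusted p = 0.0279, edgeR), a call that was lost without the eWAT sample of mouse 15 (adjusted p = 0.0806, edgeR), without the iWAT sample of mouse 14 (adjusted p = 0.0531, edgeR) and with the mouse number as a block (adjusted p = 0.0926, edgeR). Between eWAT and BAT it did not pass (log2FC -0.57 ± 0.34 SE, adjusted p = 0.139, edgeR), but without the eWAT sample of mouse 15, the highest of its depot, it did (log2FC -0.86, adjusted p = 0.0200, edgeR). With all rows of a symbol summed it passed in the opposite direction, higher in eWAT (log2FC 0.75, adjusted p = 0.0457, edgeR). The eWAT transcript has 3543 bp and the merged row 4366 bp, and the mean RPKM, which takes length into account, was 0.543 ± 0.269 in eWAT and 0.524 ± 0.0764 in BAT (SD, n = 6). A pseudogene on the same strand lies within the Lpar1 locus (58496124 to 58496697) and had a mean RPKM of 4.83 in iWAT and 2.92 in BAT. It overlaps none of the 16 Lpar1 exons of a separate mm9 annotation. The merged row that was counted has 10 exons, and their positions were not compared with the pseudogene.

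S1pr1 lies on the minus strand of chromosome 3 (115413351 to 115417973). It had the highest mean of the members in BAT, but it exceeded Gpr81 in only 2 of 6 samples, and without the sample of mouse 11 its mean was 13.5 and that of Gpr81 14.7. Its samples varied widely in every depot. The lowest, median and highest RPKM were 5.85, 12.6 and 33.0 in the iWAT samples, 15.5, 22.3 and 52.9 in the eWAT samples and 11.04, 14.6 and 39.8 in the BAT samples. The 3 ranges overlapped, and the highest iWAT sample was 5.64 times the lowest. The log2 fold change was -0.51 for iWAT over BAT (standard error 0.40, adjusted p = 0.275), 0.26 for eWAT over BAT (standard error 0.40, adjusted p = 0.576) and -0.81 for iWAT over eWAT (standard error 0.40, adjusted p = 0.149, all from edgeR). Without the iWAT sample of mouse 14, which had the highest S1pr1 value of its depot, S1pr1 was lower in iWAT than in BAT (log2FC -0.92, adjusted p = 0.0309, edgeR) and lower than in eWAT (log2FC -1.24, adjusted p = 0.0183, edgeR). In BAT the sample of mouse 11 had 39.8, whereas the other 5 lay between 11.04 and 16.2, and without it the log2 fold change of iWAT over BAT was -0.19 and that of eWAT over BAT was 0.58 (adjusted p = 0.665 and 0.182, edgeR).

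The spread of S1pr1 between samples of a depot went with that of endothelial genes. The endothelial markers, summed over 8 genes, ranged from 59.6 to 333 in iWAT samples, from 154 to 353 in eWAT samples and from 60.1 to 142 in BAT samples, and none was at 0 in a whole depot. Each depot had the same sample at the top of both measures, that of mouse 14 in iWAT, mouse 8 in eWAT and mouse 11 in BAT. Taking deviations from the depot means of log2(RPKM + 0.1), S1pr1 and the mean over the endothelial markers had a Pearson r of 0.93 over 18 samples, and within iWAT, eWAT and BAT alone it was 0.97, 0.97 and 0.84. With the mean over 5 mural cell markers, S1pr1 had an r of 0.81, and within iWAT, eWAT and BAT alone of 0.82, 0.91 and 0.78. Lpar1 had an r of 0.87 with the mean over 6 fibroblast markers and of 0.83 with that over 7 macrophage markers. The points of such a correlation share library and depth, and the part of these cells in the receptor values was not tested. Between iWAT and BAT, 1 endothelial marker was higher, 3 were lower and 4 did not pass the test, with a median log2 fold change of -0.67.

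**Figure D4:**
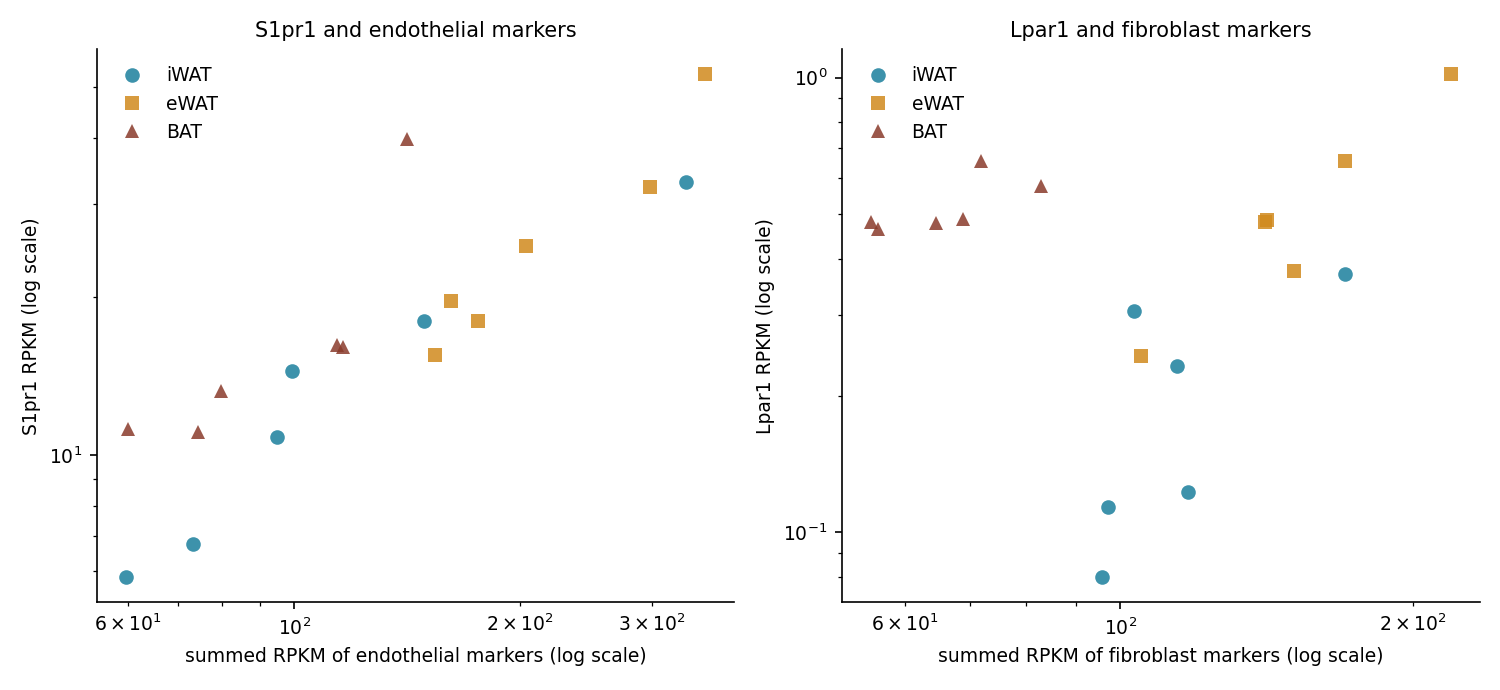
RPKM of S1pr1 against the summed RPKM of 8 endothelial markers, and RPKM of Lpar1 against that of 6 fibroblast markers, in the 18 samples (log axes). The sample with the highest endothelial sum in each depot is also the one with the highest S1pr1, with 33.0 (iWAT), 52.9 (eWAT) and 39.8 (BAT).

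The order of the members by mean RPKM changed from depot to depot. In iWAT it ran from Niacr1 (61.7 ± 17.9) over Ffar2 (38.3 ± 3.62), Gpr81 (37.8 ± 2.40) and Sucnr1 (37.0 ± 7.74) to S1pr1, Cnr1, Lpar1 and Npy1r (SD, n = 6). Ffar2, Gpr81 and Sucnr1 could not be put in order, since each exceeded the next in only 3 of 6 samples. In eWAT it ran from Sucnr1 (53.4 ± 11.97) over Gpr81 (29.9 ± 10.2), S1pr1 (27.2 ± 13.97), Ffar2 (21.2 ± 6.46) and Niacr1 (16.7 ± 5.02) to Cnr1, Lpar1 and Npy1r. The ranges of neighbours overlapped down to Niacr1, and those from Niacr1 to Cnr1, Lpar1 and Npy1r did not. In BAT, S1pr1 (17.9 ± 10.97) and Gpr81 (13.5 ± 4.57) overlapped and could not be put in order, and both lay above Niacr1 (2.91 ± 1.31), Sucnr1 (2.23 ± 0.620) and the rest. Sucnr1 ranked 1014th of 31553 symbols with a read in iWAT and 7917th of 32321 in BAT, while Gpr81 ranked 996th and 1963rd.

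Some members varied together within depots and others in opposite directions. The eWAT sample of mouse 15 was the lowest of its depot for 5 members (Sucnr1, Ffar2, Gpr81, Niacr1 and Cnr1) and the highest for Lpar1. It also had the lowest adipocyte marker sum of eWAT, 9313 against 12983 to 17091, and the highest macrophage sum. Its epididymis marker sum was 69.0. The eWAT sample of mouse 14, the highest of its depot for Sucnr1 and Cnr1, had an epididymis sum of 77.9. The part of these cells in the receptor values was not tested. The BAT sample of mouse 7 was the highest of its depot for the same 5 members, and that of mouse 11 the lowest for Sucnr1, Ffar2, Gpr81 and Niacr1 and the highest for Npy1r and S1pr1. Over 18 samples, within-depot deviations had an r of 0.81 between Ffar2 and Gpr81, of 0.70 between Niacr1 and Cnr1 and of 0.71 between Npy1r and S1pr1. Of the pairs with a negative r, Cnr1 and S1pr1 had -0.56 and Niacr1 and S1pr1 had -0.51 (-0.69 and -0.66 without the eWAT sample of mouse 15). In iWAT the samples of mice 7 and 11 had the highest Niacr1 (78.8 and 87.9) and the highest Cnr1 (5.75 and 6.11). The same 2 samples stood apart in their markers, with the lowest adipocyte sums of the depot (11044 and 12271, the others 15053 to 16821) and the highest macrophage sums (147 and 92.6, the others 28.2 to 41.4), and the part of this in their receptor values was not tested. Gpr81 and Sucnr1 had an r of 0.73 and 0.72 with the adipocyte markers, which was 0.60 and 0.62 without the eWAT sample of mouse 15.

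Among 12570 other symbols with a mean RPKM of at least 1, those with a within-depot pattern most like S1pr1 were Sox17 (r = 0.98), Spry1 (0.97) and Sema3g (0.97). Those most like Lpar1 were Ecm1 (0.94), Timp2 (0.93) and Ptgs2 (0.91). For Ffar2 the nearest symbol was Gpr81 (0.81), followed by Slc7a10 (0.81) and Serpina3n (0.81). For Gpr81 they were Car5b (0.87), Kcnk2 (0.87) and Slc25a10 (0.85), for Sucnr1 Trip4 (0.90), Fbxl4 (0.90) and 4930414N08Rik (0.90), for Niacr1 Slc43a1 (0.87), Mapk8ip1 (0.87) and BC035947 (0.87), and for Cnr1 Gca (0.85), Irs2 (0.84) and Gpx8 (0.84). Npy1r was too low for this comparison. These r values are the highest of a large number and describe 18 samples.

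The relatives of these receptors and their G proteins were compared between iWAT and BAT, where rows are the same. Of 19 related receptors only 8 had enough reads for the test, of which 1 was higher in iWAT, 4 were lower and 3 did not pass, with a median log2 fold change of -0.69 beside 0.01 over all rows. Of all rows, 34% were higher and 33.6% lower. Lpar4 was the higher gene (log2FC 1.14, adjusted p = 9.29e-05, edgeR), with a mean RPKM of 1.60 in iWAT and 0.601 in BAT. S1pr5, 1 of the 4 lower genes, had 0 to 1 reads per iWAT sample and 92 to 194 per BAT sample. S1pr5 passed the read filter through BAT alone and thus had to differ, and no fold is given. The count of lower genes and the median include it and are to be read with this limit. The long-chain fatty acid receptor Gpr120 (Ffar4) had 12.4 in iWAT and 8.38 in BAT and did not pass (log2FC 0.31, adjusted p = 0.177, edgeR). Ffar3, which shares ligands with Ffar2, and the remaining relatives had too few reads.

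Of 5 other antilipolytic Gi receptors, 2 had enough reads for the test between iWAT and BAT. These, the receptors for adenosine and prostaglandin E2, did not share the pattern of the metabolite receptors. The alpha-2 adrenergic receptors had too few reads. Their mean RPKM in iWAT and BAT was 0.0724 and 0.0172 for Adra2a, 0.0214 and 0.0627 for Adra2b, and 0.0153 and 0.0700 for Adra2c. Adora1 had a mean RPKM of 21.4 in iWAT and 19.1 in BAT (log2FC -0.10, adjusted p = 0.364, edgeR), and Ptger3 had 19.9 and 15.2 (log2FC 0.10, adjusted p = 0.604, edgeR). Of the 5 Gi-class alpha subunits, 4 were higher in iWAT than in BAT and 1 was lower, where 34% of all rows were higher and 33.6% lower. Gnai1 was 129 in iWAT and 10.9 in BAT (log2FC 3.29, adjusted p = 6.38e-11, edgeR), Gnai2 was 52.8 and 19.8, and Gnai3 was 25.1 and 10.2. Gnao1, best known from neurons, was lower (log2FC -1.88, adjusted p = 3.32e-09, edgeR). The same 4 were higher and Gnao1 lower in eWAT than in BAT, also with row length as an offset. Without the offset, 35.6% of all symbols were higher in eWAT than in BAT and 34.7% lower.

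Genes that make, move or remove the ligands were described in the same comparison. Of 33 such genes 28 were tested, of which 8 were higher in iWAT, 15 were lower and 5 did not pass, with a median log2 fold change of -0.59, where 34% of all rows were higher and 33.6% lower. All 7 genes of succinyl-CoA synthetase and succinate dehydrogenase were lower in iWAT, by log2 fold changes of -3.01 to -0.71, where Sucnr1 was higher by 3.78. Sdhd, a membrane subunit of succinate dehydrogenase, had a mean RPKM of 73.8 in iWAT and 307 in BAT. The 7 genes were also lower in eWAT than in BAT, with and without row length as an offset. For lactate, 3 of 4 genes were lower in iWAT, among them Ldha (log2FC -0.43, adjusted p = 0.00369, edgeR), which had 164 in iWAT and 183 in BAT with overlapping ranges. Both acetate-activating enzymes of the list were lower. Enpp2, which encodes the lysophosphatidic acid-producing enzyme autotaxin, was higher in iWAT at 25.9 against 6.69 (log2FC 1.68, adjusted p = 1.01e-09, edgeR), where Lpar1 was lower. Ppap2b (Plpp3), a phosphatase that removes lysophosphatidic acid, was higher too, at 65.9 against 12.8 (adjusted p = 9.60e-10, edgeR). Sphk1, a kinase that makes sphingosine 1-phosphate, had a low mean RPKM of 1.25 in iWAT and 0.0898 in BAT. It had 70 to 346 reads per iWAT sample and 0 to 51 per BAT sample. Its iWAT samples alone met the read filter, so no fold or test is given. Sphk1 is still among the 28 tested genes behind the counts and the median above. Sgpp1, which removes sphingosine 1-phosphate, was also higher (log2FC 1.61, adjusted p = 5.37e-07, edgeR). Mgll, which degrades the endocannabinoid 2-arachidonoylglycerol and also acts in lipolysis, was 273 in iWAT and 120 in BAT (log2FC 0.92, adjusted p = 2.12e-05, edgeR). Dagla, an enzyme that makes this endocannabinoid, was lower in iWAT, at 1.42 against 6.78 (log2FC -2.52, adjusted p = 5.86e-09, edgeR). The other tested endocannabinoid genes went both ways. Daglb and Napepld had a higher mean RPKM in iWAT than in BAT (4.32 against 2.66 and 8.00 against 3.43). Abhd6 had a lower one (6.05 against 10.1). For eWAT, the counts of this list depended on row length: between iWAT and eWAT, 8 genes were higher in iWAT and 3 lower, but 1 and 18 with the offset, which moved all symbols from 2462 higher and 2252 lower to 1032 and 8612.

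**Figure D5:**
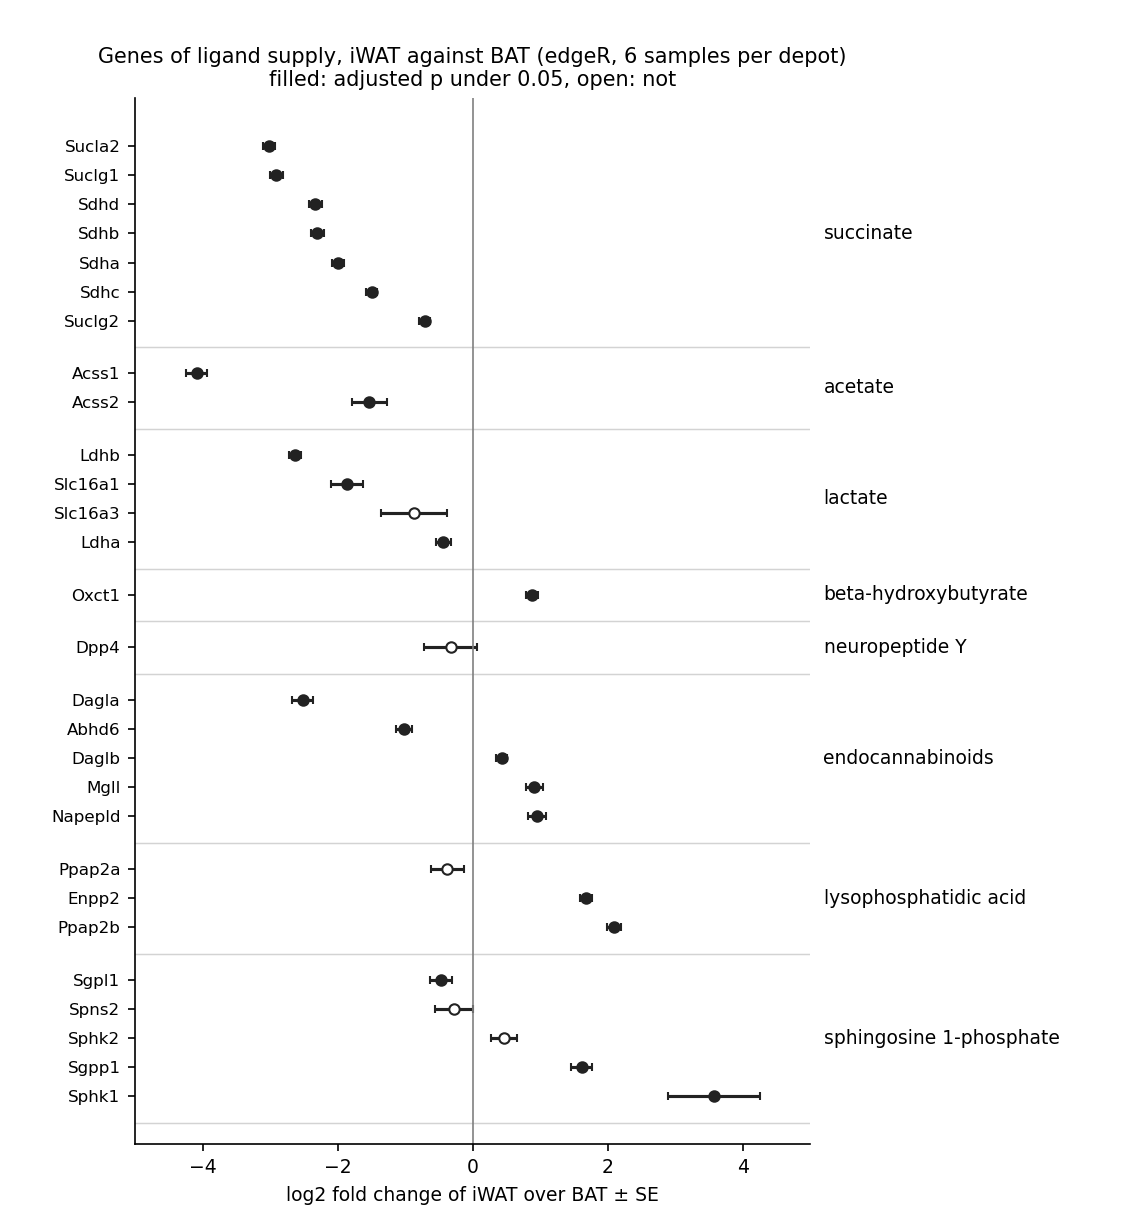
Log2 fold change of iWAT over BAT with its standard error for the 28 tested genes of ligand supply, grouped by ligand (edgeR, 6 samples per depot). Filled points have an adjusted p under 0.05. All 7 succinate genes lie between -3.01 and -0.71. The point of Sphk1 is drawn, but its iWAT samples alone met the read filter.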

How the data were processed

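RNA-seq of 6 iWAT, 6 eWAT and 6 BAT samples was analysed, grouped by the depot in their labels. Reads came from NEBNext Ultra RNA libraries sequenced on an Illumina HiSeq instrument. The submitters' processing notes name cutadapt (version 1.16), HISAT2 (version 2.1.0) and mm9, and the paper's methods name the Genomatix Genome Analyzer. The way reads were assigned to rows is not given in the sources used here. For each row the authors deposited an unnormalized read count and an RPKM. The RPKM was found to be that count over the row's length and over a total that is fixed within a sample, and this total served as library size.

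Per symbol the merged gene row (iWAT, BAT; 53445 rows) and the most-read transcript row (eWAT; 189660 rows) were used. A minimum of 10 reads in 6 or more samples was required, and tests were done with edgeR (version 4.0.16), quasi-likelihood test and TMM, with p-values adjusted over all rows or symbols (Benjamini-Hochberg, threshold 0.05). All 8 members passed this filter. The fit of iWAT against BAT used these 12 samples, and the other fits used all 18. The script was tested on simulated data. Nothing in the labels says how the animals relate beyond a number in the titles, so the p-values measure the spread between these samples.

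The members and lists were chosen with earlier results of these data known. Named genes are the 8 members, genes of 4 lists (related receptors, other antilipolytic Gi receptors, Gi-class alpha subunits, ligand supply), and per member the 3 symbols with the most similar within-depot pattern. Values were planned for at most 6 genes per list, those with the highest mean RPKM or needed as supply of a member. More genes than this are named from the ligand supply list. Alternatives were a block for the mouse number, no TMM, limma (version 3.58.1) on log2(RPKM + 0.1) or log2(RPKM + 1), DESeq2 (version 1.42.0), no read filter, other rows, a length offset and single samples left out. Lpar3, Lpar4, S1pr5, Adra2a, Adra2b, Adra2c, Ppap2b, Sgpp1, Dagla, Daglb, Napepld and Abhd6 were named after their values were seen. A further gene of the ligand supply list is not reported here. The fit without the BAT sample of mouse 11 was added after seeing the data. Analyses were run in R (version 4.3.3) and Python (version 3.11.15).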

Additional observations from a re-analysis of the deposited data

Results flagged for a closer look

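In each depot, the highest and the lowest of the 6 samples were examined for all 8 members, 24 measures in all. A sample was singled out when its distance to the nearest of the others, taken as a share of the depot's range, was above Dixon's critical value for 6 samples, which chance brings about in roughly 1 of 20 such measures. S1pr1 in BAT was the only measure to do so. The sample of mouse 11 had an RPKM of 39.8, the other 5 had 11.04 to 16.2, and the ratio was 0.820. The same sample had the highest endothelial marker sum in BAT, 142 against 60.1 to 116, and its part in the S1pr1 value was not tested. Without it, the mean RPKM of S1pr1 in BAT was 13.5 ± 2.51 (SD, n = 5).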

How the results depend on the processing

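The number of members called was within 1.5 times its value in all alternatives but that of identical rows, where only 3 members could be tested, of which 3 were called against BAT in eWAT and 1 between the white depots. Of all 5733 identical rows tested, 3888 and 737 were called in these comparisons. Summing all rows of a symbol, which counts a read once per transcript in eWAT, turned the direction of Lpar1 between eWAT and BAT (log2 fold change 0.75), of Sucnr1 between iWAT and eWAT (0.32) and of Npy1r between iWAT and eWAT (0.72), and limma on log2(RPKM + 1) turned Lpar1 between eWAT and BAT (0.0017). None of these was a call of the reported fit, but with summed rows Lpar1 between eWAT and BAT passed the threshold as higher in eWAT (adjusted p = 0.0457, edgeR). Of the other values of single members, 78 (iWAT against BAT), 87 (eWAT against BAT) and 67 (iWAT against eWAT) kept direction and side of the threshold, while 1, 1 and 8 passed the threshold newly and 1, 1 and 6 no longer passed it. Besides the changes given with the members, limma on log2(RPKM + 0.1) lost Npy1r between eWAT and BAT (adjusted p = 0.0582) and Cnr1 between iWAT and eWAT (adjusted p = 0.0716). Between iWAT and eWAT, Sucnr1 (adjusted p = 0.0395 and 0.0203) and S1pr1 (0.0435 and 0.04999) passed with limma on log2(RPKM + 0.1) and log2(RPKM + 1), and S1pr1 also with summed rows (log2 fold change -1.29, adjusted p = 0.00799, edgeR). Sucnr1 passed with the length offset too (adjusted p = 0.0349, edgeR), where its own log2 fold change of -0.52 did not move and the number of symbols called did. When the number of the mouse entered the fit as a replicate block, 6, 6 and 3 members were called in the 3 comparisons. Over all genes, 11711 of 19733, 11401 of 18383 and 3153 of 18383 were called with the block. Same-numbered samples did not deviate together (mean r of 0.03, -0.04 and -0.04 over 4, 4 and 5 pairs). So few pairs of different depots cannot show whether same-numbered samples come from the same animal. The reported fits left the number out. In the block fit of iWAT against BAT, only the 4 shared numbers inform the difference. The median log2 fold change of all genes moved from 0.01 to 0.27 (iWAT against BAT) and from 0.03 to 0.36 (eWAT against BAT) without TMM, which changed the split of calls from 6711 higher and 6626 lower to 9107 and 4732, and from 6541 and 6375 to 8946 and 4542. With row length as an offset it was 0.48 between eWAT and BAT (9775 higher, 4356 lower) and -0.38 between iWAT and eWAT (1032 higher, 8612 lower). Between iWAT and eWAT, 4714 genes were called, 9644 with the offset, 9625 and 9479 with limma, 13605 with summed rows, 737 of 5733 with identical rows and 3153 with the block. Of the mean levels, 37 moved by less than 1 SD with other rows or TMM-rescaled RPKM and 3 by more (Gpr81 in iWAT to 35.2 and Lpar1 in BAT to 0.607 with rescaling, Cnr1 in eWAT to 1.93 as the mean of all transcripts). Npy1r, Lpar1 and, in BAT, Cnr1 rest on few reads, which limits their precision.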

Other observations

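Between eWAT and BAT, 10 related receptors were tested. Lpar3, a further receptor for lysophosphatidic acid, had 12 to 54 reads per eWAT sample, 3 to 49 per iWAT sample and 0 to 1 per BAT sample, with a mean RPKM of 0.384 in eWAT. S1pr5 had 0 to 4 reads per eWAT sample, against 92 to 194 in BAT. Each passed the read filter only through the depots where it was high, so no fold or test is given for this pair.

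Adora1 was lower in eWAT than in BAT (log2FC -1.03, adjusted p = 1.36e-06, edgeR) and higher in iWAT than in eWAT (log2FC 0.87, adjusted p = 0.000110, edgeR), with a mean RPKM of 12.4 in eWAT.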
